A study of Mus musculus with 5 samples.

Results

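Magea genes encode the mouse A family of MAGE proteins, named after the melanoma antigens first found as tumour targets of T cells. The 5 genes described here are Magea1, Magea2, Magea4, Magea5 and Magea8, taken by symbol from the deposited table of read counts per exon bin, in which an exon is cut where transcripts differ. They held 13 of 243715 bins and are 5 of 24538 gene entries. They were picked because they stood higher in cells lacking a super-enhancer than in wildtype cells. That contrast is therefore given for them as a description, with no test.

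MAGE proteins share one conserved domain through which they bind RING-type ubiquitin ligases and alter which proteins those ligases mark. Type I genes (Magea and Mageb in the mouse) lie on the X chromosome, are expressed mainly in germ cells of the testis, and are silent in most somatic tissues, where promoter DNA methylation is one known layer of silencing. Type II genes such as Magee1 and Magel2 are expressed more broadly. Activation of type I genes in tumours gave them the name cancer-testis antigens.

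The cells were mouse embryonic stem cells, cultured pluripotent cells. Libraries of polyadenylated RNA came from wildtype cells (wildtype 1, 2 and 3) and from cells with the genotype "-45 SE deleted" (deleted 1 and 2), which lack one super-enhancer, a dense group of enhancers, of the pluripotency gene Nanog. The labels' protocols give all samples 6 days of ethanol vehicle or 4-hydroxytamoxifen without saying which library had which, and give no clone, culture or pool. The spread between libraries may thus be technical, and the design text counts 3 replicates per condition, of which 1 deletion library was not analysed here. Bin counts totalled 114838600 to 213042746 in wildtype and 93574609 and 99134363 in deleted libraries. Values are CPM, read counts scaled to a common library size with TMM normalisation, and 1 count was worth 0.00463 to 0.0107 CPM. Wildtype 3 was the deepest library and stood apart, with a chi-square per degree of freedom of 93.4 and 87.4 against wildtype 1 and 2, which had 9.96 between them. The deleted pair had 21.9. None of the 10 listed pluripotency markers had a row under its symbol, so the labelled cell type was not checked against them, nor was the deletion against its target.

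In RefSeq's gene order (assembly GRCm38.p6, used for order since the submitters' processing notes name mm9), Magea8, Magea2, Magea5 and Magea1 are consecutive protein-coding genes of the X chromosome, and Magea3 and Magea6 come next before Magea8. Magea4 lies elsewhere on the X chromosome, with Cnga2 before it and Gabre after it. The RefSeq promoter table of that assembly, which gives 250 bases before to 50 after each annotated start, held all 5 genes. Their start windows are printed to show which of them are alike in sequence and which differ. All run 5′ to 3′ in the direction of the gene. In the windows of Magea8 and Magea2, capitals mark the longest run both share, of 70 bases. In Magea5 they mark its longest run shared with Magea2 (9 bases), in Magea1 that shared with the untested copy Magea3 (29 bases) and in Magea4 that shared with Magea1 (13 bases).
Magea8, chrX:154995801-154996100, minus strand: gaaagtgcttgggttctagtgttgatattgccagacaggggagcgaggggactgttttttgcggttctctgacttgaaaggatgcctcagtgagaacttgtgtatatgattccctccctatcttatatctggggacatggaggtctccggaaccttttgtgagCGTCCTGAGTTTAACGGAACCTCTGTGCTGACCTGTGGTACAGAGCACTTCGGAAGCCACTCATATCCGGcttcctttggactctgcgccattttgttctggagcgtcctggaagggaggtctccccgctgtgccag
Magea2, chrX:155033243-155033542, minus strand: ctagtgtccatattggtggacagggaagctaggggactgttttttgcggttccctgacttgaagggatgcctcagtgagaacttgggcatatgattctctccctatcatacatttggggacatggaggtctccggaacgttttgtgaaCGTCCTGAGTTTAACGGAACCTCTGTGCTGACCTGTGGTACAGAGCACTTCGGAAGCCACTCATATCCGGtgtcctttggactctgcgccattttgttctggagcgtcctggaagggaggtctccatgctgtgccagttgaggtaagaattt
Magea5, chrX:155061504-155061803, minus strand: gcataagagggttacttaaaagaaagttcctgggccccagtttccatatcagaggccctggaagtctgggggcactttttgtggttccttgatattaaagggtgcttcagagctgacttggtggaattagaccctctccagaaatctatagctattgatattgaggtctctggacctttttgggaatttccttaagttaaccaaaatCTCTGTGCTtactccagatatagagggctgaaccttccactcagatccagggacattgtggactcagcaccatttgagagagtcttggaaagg
Magea1, chrX:155089741-155090040, minus strand: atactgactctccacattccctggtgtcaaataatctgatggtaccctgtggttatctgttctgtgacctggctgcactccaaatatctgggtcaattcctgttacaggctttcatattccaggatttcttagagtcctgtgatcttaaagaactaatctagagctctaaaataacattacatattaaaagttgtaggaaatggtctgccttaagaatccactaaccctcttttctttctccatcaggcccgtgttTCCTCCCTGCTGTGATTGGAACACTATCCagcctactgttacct
Magea4, chrX:72221767-72222066, plus strand: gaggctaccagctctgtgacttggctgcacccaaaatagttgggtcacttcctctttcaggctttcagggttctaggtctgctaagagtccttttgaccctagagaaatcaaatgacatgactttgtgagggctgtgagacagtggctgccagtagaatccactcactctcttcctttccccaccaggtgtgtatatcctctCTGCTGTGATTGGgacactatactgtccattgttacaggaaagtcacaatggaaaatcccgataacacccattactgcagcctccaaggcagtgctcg

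The windows differed in sequence, but not all of them may be promoters. The longest GENCODE vM21 transcripts of Magea1, Magea3 and Magea4 have 1 exon each, of 1108, 963 and 948 bases. Of these, 960, 960 and 945 bases are coding. Their annotated starts may not be where transcription begins, so their windows may not be comparable with the others. The windows of Magea2 and Magea8 were 92.6% identical over 285 aligned bases (gaps are left out of every identity given), and Magea5 was 72.3% identical to Magea2 and 71.1% to Magea8. The window of Magea1 was 86.6% identical to that of Magea3 and 74.4% to that of Magea4. Its identity to Magea2 was 61.2%, near the lowest of the 28 pairs, 60.5% between Magea1 and Magea8. All these values are for windows aligned end to end, and the value of unrelated windows was not computed. Local alignment, which keeps only the most alike stretch, covered 12 bases for Magea1 with Magea2 and with Magea8. For Magea5 with Magea2 it covered 229 bases. The lowest end-to-end values thus show no likeness. Magea8 held 10 CpG dinucleotides, the sites of DNA methylation, and Magea2 held 9. Magea4 held 2, Magea1 held 1 and Magea5 held 0, against a median of 7 over 32851 promoter windows. All 5 windows had a GC content below the promoter median of 52.7%, from 41.7% in Magea1 to 52.0% in Magea8.

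Known motifs were searched on both strands of the windows, with the same limit on the starts of Magea1 and Magea4. None of the 5 held the E-box CACGTG, present in 7.15% of all 32851 windows, the E2F motif GCGGGAA (4.60%), the ETS motif CCGGAAG (8.86%) or the Zscan4 motif TGCACAC (4.40%). The longest run shared by the windows of Magea2, Magea8 and Magea10, looked for after the sequences were read, was GCGCCATTTTGT, 12 bases that were in 5 of all 32851 windows. The 5 windows include those of Magea2, Magea8 and Magea10, which defined the run, so its rarity is a description. Magea2 and Magea8 share most of their window, so theirs are not separate occurrences.

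The transcripts of the cluster copies were much alike. Their identities are from local alignment, so they are not the same measure as the end-to-end values of the windows. By local alignment of the longest GENCODE vM21 transcripts, Magea1 and Magea2 were 99.2% identical over 1108 bases. The 6 pairs among Magea1, Magea2, Magea5 and Magea8 ranged from 94.9% to 99.2%, and those between Magea4 and these 4 from 84.9% to 85.3%. Of all stretches of 50 bases, 75.9% in Magea1, 58.3% in Magea2, 47.5% in Magea5 and 41.5% in Magea8 also occurred in transcripts of other genes, which were Magea copies in each case. In Magea4 the share was 2.34%. The sources used here do not say how reads that match several places were counted, so values of single copies of the cluster are uncertain and their sum is given beside them. The values of Magea4 are less exposed to this. The strand setting is not stated either, so antisense or overlapping transcripts cannot be told apart from these genes.

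**Figure D1:**
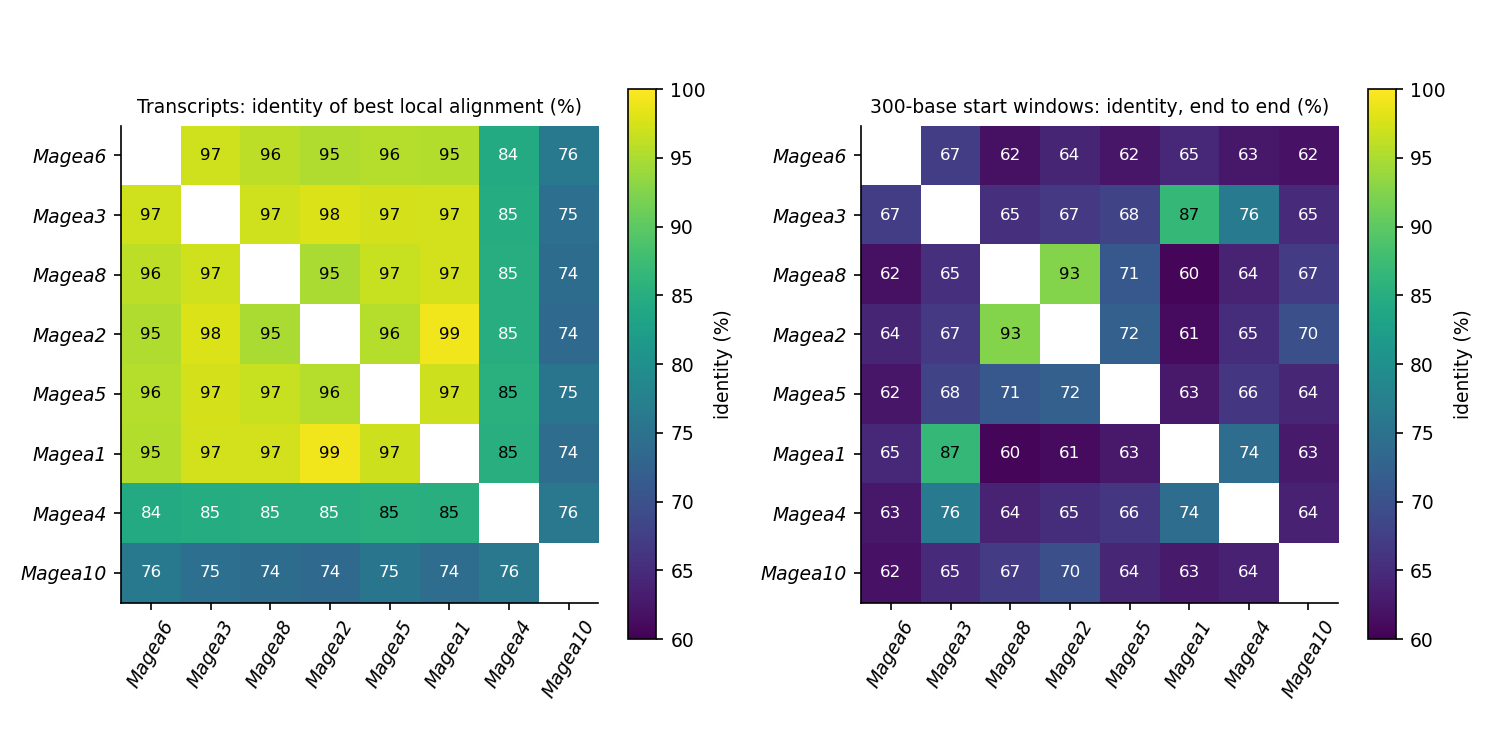
Percent identity between 8 Magea genes, for the best local alignment of the longest annotated transcripts (left) and for 300-base start windows aligned end to end (right); both colour scales run from 60% to 100%. Transcripts of the cluster copies Magea1, Magea2, Magea5 and Magea8 are 94.9% to 99.2% identical. Among the start windows, aligned in another way, only the pairs of Magea2 with Magea8 and Magea1 with Magea3 exceed 80%.

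All 5 genes stood higher in both deleted libraries than in any wildtype library. By edgeR's quasi-likelihood fit over all genes, 5 of 5 were called higher at the adjusted threshold of 0.05, as were 19.0% of the 3591 tested gene symbols and 14.8% of the 1433 symbols within the members' range of mean level. Over all 16259 tested genes, 39.7% were called, 20.0% higher and 19.7% lower. Both deleted libraries lay above all wildtype libraries for 32.8% of tested symbols and for 29.8% of those in that range. The members were chosen on this contrast, so their count is a description. Of the 5, Magea4 had enough counts in wildtype alone to enter the fit, and the other 4 entered it through the deleted libraries. The median log2 fold change (deleted minus wildtype) was 3.56 over the 5 genes and 0.07 over all tested symbols, of which 10.3% lay above the smallest value of the 5.

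Magea5, which lies between Magea2 and Magea1 in the cluster, showed the largest difference of the 5. It had 8, 1 and 7 counts in wildtype 1, 2 and 3, against 108 and 66 in deleted 1 and 2. The levels were 0.0643, 0.00875 and 0.0324 CPM in wildtype against 1.16 and 0.666 CPM in deleted libraries. Wildtype 2 was lowest, and deleted 1 was well above deleted 2, so the gene was the most variable of the 5 in the deleted group. The means were 0.0351 ± 0.0279 CPM (SD, n = 3) and 0.912 ± 0.347 CPM (SD, n = 2). The log2 difference was 4.65 ± 0.45 (SE), the fourth highest of 3591 symbols.

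Magea8, at the other end of the run of 4 copies from Magea1, came next. It had 7, 5 and 3 counts in wildtype 1, 2 and 3, against 52 and 62 in deleted 1 and 2. Both deleted libraries were close together, and wildtype 3 was lowest although it was the deepest. Means were 0.0380 ± 0.0218 CPM (SD, n = 3) and 0.592 ± 0.0485 CPM (SD, n = 2), with a log2 fold change of 4.10 ± 0.39 (SE) that was 3.52 without wildtype 3.

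Magea1 and Magea2, the pair with nearly the same transcript, stood at nearly the same level in the deleted libraries. Magea1 had 6, 0 and 3 wildtype counts and 22 and 25 deleted counts, with a mean of 0.0207 ± 0.0248 CPM over wildtype (SD, n = 3) and of 0.244 ± 0.0117 CPM over deleted (SD, n = 2). Magea2 had 7, 3 and 1 wildtype counts and 22 and 23 deleted counts, with means of 0.0290 ± 0.0259 CPM (SD) and 0.234 ± 0.00254 CPM (SD). In both genes wildtype 1 was the highest wildtype library, and no wildtype library came near the deleted ones. The log2 fold changes were 3.56 ± 0.61 (SE) for Magea1 and 3.20 ± 0.59 (SE) for Magea2. With so few wildtype counts these values moved with single libraries, to 4.60 for Magea1 and 4.14 for Magea2 without wildtype 1, and to 2.44 for Magea2 without wildtype 3.

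Magea4, the copy outside the cluster, differed from the other 4 in its wildtype level. It had 23, 32 and 83 counts in wildtype 1, 2 and 3, which are 0.185, 0.280 and 0.384 CPM, and 53 and 57 counts in deleted 1 and 2, which are 0.568 and 0.575 CPM. The wildtype libraries spread over about their whole range in even steps, while the deleted libraries were almost equal and lay above them. The means were 0.283 ± 0.0996 CPM (SD, n = 3) and 0.572 ± 0.00524 CPM (SD, n = 2), and the log2 fold change was 0.96 ± 0.28 (SE). Its rank was 370 of 3591 symbols, where Magea5, Magea8, Magea1 and Magea2 had ranks 4, 8, 12 and 19.

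Counting error alone gives the following range for the ratio of pooled CPM, deleted over wildtype, with exact Poisson intervals at the 95% level that leave out the spread between libraries. The ratio was 25.7 (15.4 to 46.0) for Magea5, 18.0 (10.4 to 33.2) for Magea8, 12.3 (5.98 to 28.7) for Magea1, 9.67 (4.92 to 20.7) for Magea2 and 1.88 (1.45 to 2.44) for Magea4. The intervals of the 4 cluster copies overlap with each other, and none of them reaches that of Magea4. This difference between copies lies in the contrast that chose them and was not tested.

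**Figure D2:**
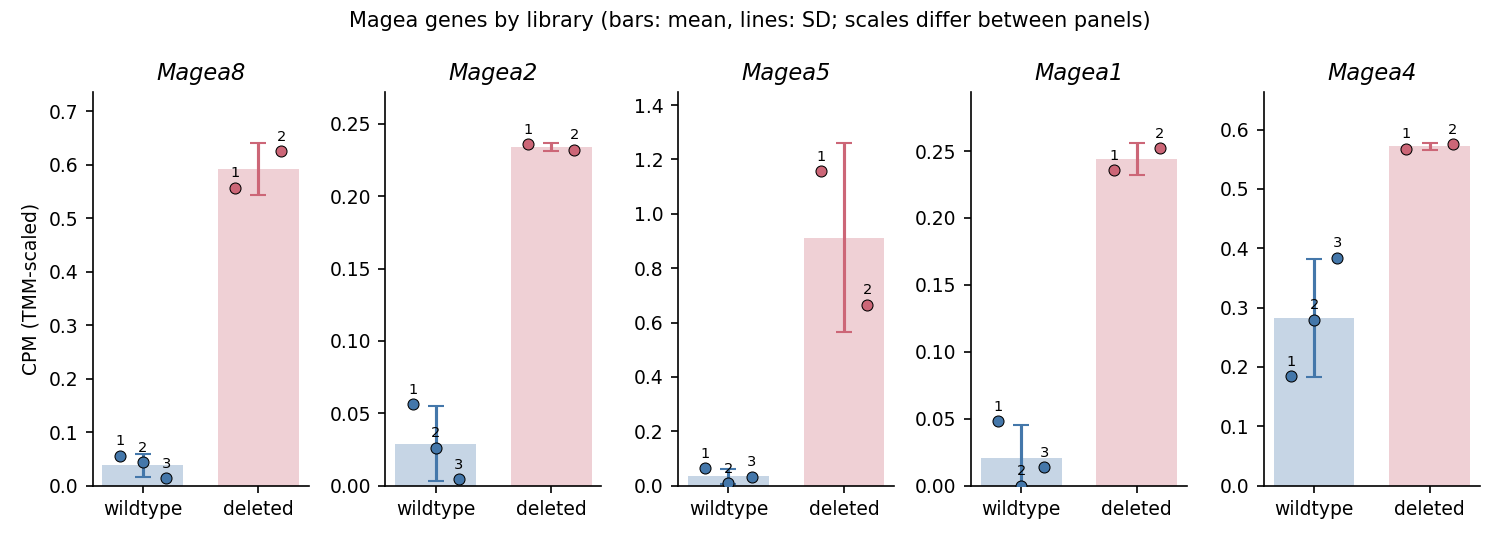
CPM of each Magea gene (y axis, a separate linear scale from 0 in each panel) in wildtype and deleted libraries; points are libraries with their replicate number, bars the mean and lines the SD. In the cluster copies wildtype lies near 0, from 0.0207 to 0.0380 CPM on average, whereas Magea4 starts from 0.283 CPM.

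Summed over the 5 genes, which depends less on how reads were divided among copies, wildtype 1, 2 and 3 had 51, 41 and 97 counts, and deleted 1 and 2 had 257 and 233. This was 0.410, 0.359 and 0.449 CPM against 2.75 and 2.35 CPM. The wildtype libraries lay close together and far below the deleted pair. The log2 fold change of the sum was 2.63 ± 0.15 (SE). Without Magea4, which gave most of the wildtype counts, the sum of the 4 cluster copies was 0.123 ± 0.0888 CPM over wildtype (SD, n = 3) and 1.98 ± 0.290 CPM over deleted libraries (SD, n = 2), or 4.10 ± 0.39 (SE) on the log2 scale. Without wildtype 1, which had the most cluster counts of the wildtype libraries, this was 4.79 ± 0.25 (SE). With the cluster copies Magea3 and Magea6 added to all 5, it was 2.70 ± 0.15 (SE).

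The makeup of the Magea RNA differed between the groups. Magea4 held 45.1%, 78.0% and 85.6% of the summed Magea CPM in wildtype 1, 2 and 3, against 20.6% and 24.5% in deleted 1 and 2. Magea5 held 15.7%, 2.44% and 7.22% in wildtype and 42.0% and 28.3% in deleted libraries. The groups did not overlap in either share. Both shares rest on the contrast that chose the members, so this is a description. Wildtype 1 stood apart from the other wildtype libraries in having more of each cluster copy, with 28 cluster counts against 9 in wildtype 2 and 14 in the deeper wildtype 3. Per kilobase of annotated transcript, Magea4 was the highest of the 5 in wildtype at 0.298 ± 0.105 CPM per kilobase (SD, n = 3). The others stood between 0.0172 and 0.0231 CPM per kilobase, differences within their spread. In the deleted libraries the order was Magea4 at 0.603 ± 0.00553, Magea5 at 0.583 ± 0.222, Magea8 at 0.359 ± 0.0295, Magea1 at 0.220 ± 0.0106 and Magea2 at 0.139 ± 0.00151 CPM per kilobase (SD, n = 2). Magea4 and Magea5 did not differ beyond their spread there. The order depends on the annotated lengths, which are 948 bases for Magea4, of which 945 are coding, and 1563 for Magea5. Before scaling by length, Magea5 had the higher mean in deleted libraries, 0.912 against 0.572 CPM. Reads shared among the cluster copies may also affect these shares and levels, which was not tested.

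The bins of each gene showed the same direction as its sum. Magea1 and Magea4 each have 1 bin, so their bin is the gene. Magea2 and Magea8 have 4 bins and Magea5 has 3, and in all of these bin 1 held most counts. Bin 1 of Magea5 had 8, 1 and 3 counts in wildtype and 92 and 61 in deleted libraries, a log2 fold change of 4.86 ± 0.47 (SE) in a fit over all bins. Bin 1 of Magea8 had 6, 4 and 2 against 41 and 44 counts, and bin 1 of Magea2 had 5, 3 and 1 against 18 and 16. In each of the 3 genes, bin 1 of both deleted libraries lay far above that of every wildtype library. These bins, with those of Magea1 and Magea4, were the 5 of the 13 with enough counts for that fit, and all 5 were called higher, as were 6.75% of the 11360 tested bins of gene symbols and 9.29% of all 151650 tested bins. These member bins were chosen with their genes, so this count and the order of the libraries in bin 1 are descriptions. The share of all bins with both deleted libraries above every wildtype library was not computed.

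The lesser bins were near the limit of counting. Bin 2 of Magea5 had 0, 0 and 1 counts in wildtype and 11 and 2 in deleted libraries, and bin 2 of Magea8 had 0, 1 and 0 against 3 and 11. Deleted 1 was thus high in one gene and deleted 2 in the other. In 3 bins (bins 3 and 4 of Magea2 and bin 4 of Magea8) no wildtype library had a count, and the deleted libraries together had 3, 4 and 5. Bin 1 held 87.9% of Magea5 counts, 74.6% of Magea8 counts and 75.6% of Magea2 counts in the deleted libraries. In wildtype it held 75.0%, 80.0% and 81.8%, of only 16, 15 and 11 counts. The longest annotated exon makes up 89.5%, 85.2% and 86.1% of the transcript of Magea5, Magea8 and Magea2 in GENCODE vM21, is the last exon and contains all of the coding sequence. The table gives no bin positions, so it does not show which exon bin 1 is.

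**Figure D3:**
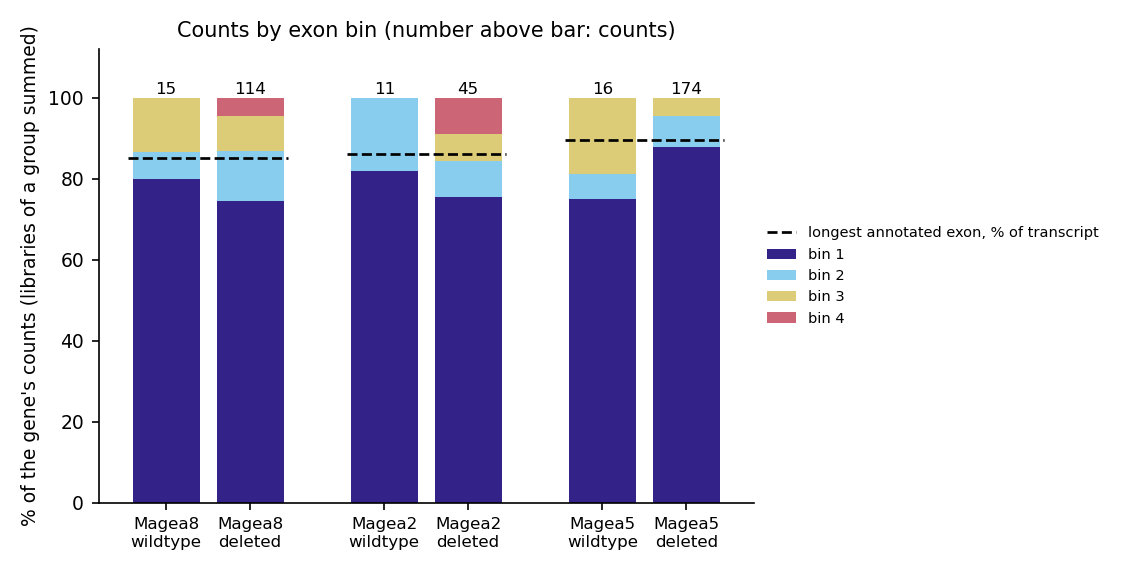
Percent of each gene's counts in each exon bin (y axis) for the 3 Magea genes with several bins, with the libraries of a group summed and the number of counts above each bar; the dashed line is the length of the longest annotated exon as a percent of the transcript. Bin 1 holds 74.6% to 87.9% of counts, and the wildtype bars rest on 11 to 16 counts.

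Of the other listed type I genes, 7 of 17 had a row and 1 had enough counts for a test. This was Mageb4, a germ cell gene of the related Mageb family, which rose. It stood at 0.555, 0.543 and 0.560 CPM in wildtype 1, 2 and 3, against 1.45 and 1.29 CPM in deleted 1 and 2, a log2 difference of 1.31 ± 0.14 SE (edgeR adjusted p = 0.000206). The wildtype libraries were almost equal and both deleted libraries lay above them. Magea3 and Magea6, the remaining cluster copies, had too few counts for the fit. Magea3 had 0 counts in all wildtype libraries and 7 and 6 in deleted libraries. With wildtype set at a floor of 3 counts over the group, the pooled ratio was 10.2. This value leaves out the counting error of the deleted libraries, so it is not a lower limit. Magea6 had 0, 0 and 1 against 7 and 6 counts, a pooled ratio of 30.7 with an exact Poisson interval of 4.62 to 1306 at the 95% level. Both copies were seen almost wholly in the deleted libraries, at far fewer counts than Magea5. Of their stretches of 50 bases, 54.0% in Magea3 and 39.0% in Magea6 also occurred in transcripts of other genes, Magea8 among them. Some of these counts may thus be reads of other copies, which was not tested. Magea10, which lies near Magea4, had 0, 1 and 5 counts in wildtype and 7 and 8 in deleted libraries. Mageb1 and Mageb5 had 0 counts in all 5 libraries and Mageb18 had 1.

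Type II genes did not move together. Of 9 listed, 3 had rows and were tested, and 1 rose. Magee1 rose from 1.17 ± 0.163 CPM in wildtype (SD) to 1.97 ± 0.150 CPM in deleted libraries (SD), by 0.74 ± 0.15 on the log2 scale (edgeR adjusted p = 0.00412). Magel2, an imprinted gene of the Prader-Willi region, had 0.35 ± 0.22 on the log2 scale, and Magee2 had -0.47 ± 0.18 (edgeR adjusted p = 0.0672 for Magee2). Magee2 passed where the fit was limited to rows with gene symbols, at -0.55 ± 0.19 (edgeR adjusted p = 0.0329). Outside the fixed lists, and seen after the fact, Magef1 fell from 0.775 ± 0.0968 CPM in wildtype (SD) to 0.428 ± 0.151 CPM in deleted libraries (SD), a log2 difference of -0.84 ± 0.24 (edgeR adjusted p = 0.0203). Magef1 did not pass once wildtype 1 or deleted 1 was left out (edgeR adjusted p = 0.0530 and 0.166). For the pseudogene Mageb16-ps1 the data gave a log2 fold change of 0.29 ± 0.21 (edgeR adjusted p = 0.298). Of the tested symbols, 32.1% passed in either direction. The 9 listed ubiquitin ligases and substrates that MAGE proteins are known to bind, such as Trim28, had no row under their symbols.

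**Figure D4:**
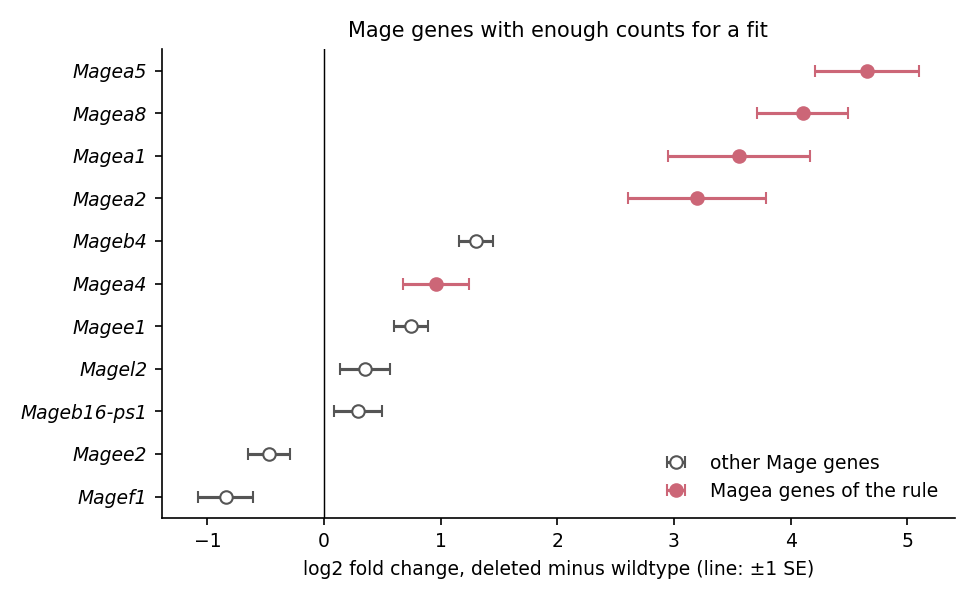
Log2 fold change, deleted minus wildtype, of the 11 Mage genes with enough counts for a fit (points; lines are 1 SE either way), with the 5 genes described here filled and the others open. The 4 cluster copies lie between 3.20 and 4.65, and the other genes between -0.84 and 1.31, with Magea4 at 0.96.

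The tested genes nearest the cluster all lay after Magea1, 5 to 13 protein-coding genes away, and none was called higher. Before Magea8 no neighbour looked at was tested, and Magea3 and Magea6 there had too few counts. Some genes around Magea4 were called, in both directions. After Magea1 the nearest tested genes were Ptchd1, a membrane protein gene, and Phex, an endopeptidase gene of phosphate balance. Their log2 fold changes were -0.59 ± 0.42 and -0.28 ± 0.48, neither of which passed (edgeR adjusted p = 0.301 and 0.679). Klhl34 fell by 0.59 ± 0.19 on the log2 scale (edgeR adjusted p = 0.0335), a call that ended without wildtype 1, wildtype 2 or deleted 1 (edgeR adjusted p = 0.0704, 0.0862 and 0.254). Samt2, Samt4 and Cldn34b2 had 0 counts and Cldn34b1 had 1. Around Magea4, Prrg3, 2 protein-coding genes before it, fell from 2.42 ± 0.145 CPM in wildtype (SD) to 0.950 ± 0.0701 CPM in deleted libraries (SD), a log2 difference of -1.35 ± 0.13 (edgeR adjusted p = 0.000112). Farther on the other side, Pnma5 and Pnma3, genes of the paraneoplastic antigen family, rose by log2 fold changes of 1.73 ± 0.15 and 1.55 ± 0.28 (edgeR adjusted p = 7.17e-05 and 0.00265). Prrg3 and these Pnma genes thus moved in opposite directions, but Pnma5 and Pnma3 lie 9 and 10 protein-coding genes from Magea4. Before Magea4, Mamld1 and Gpr50 had log2 fold changes of -0.86 ± 0.36 and -0.58 ± 0.36 (edgeR adjusted p = 0.0875 and 0.229). That of 1700020N15Rik was 0.16 ± 0.37 (edgeR adjusted p = 0.756), and none of these genes passed. Of the 177 tested symbols placed on the X chromosome, 27.7% were called higher and 13.6% lower, and of the 3240 on other chromosomes 18.6% and 13.2%.

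Among germ cell genes outside the Mage family, 2 of 6 tested X-linked genes rose and 4 did not pass, where 19.0% of all tested symbols were called higher and 13.1% lower. Nxf3, an RNA export factor gene, rose from 0.427 ± 0.0675 CPM in wildtype (SD) to 2.93 ± 0.146 CPM in deleted libraries (SD), a log2 difference of 2.76 ± 0.15 (edgeR adjusted p = 6.95e-06). Rhox2a, a reproductive homeobox gene with close copies, had 6, 2 and 7 counts in wildtype and 17 and 19 in deleted libraries, a log2 difference of 2.47 ± 0.44 (edgeR adjusted p = 0.00231). The deubiquitinase gene Usp26 had 0.54 ± 0.20 (edgeR adjusted p = 0.0627), and passed with its most counted bin as the gene's count, at 0.75 ± 0.19 (edgeR adjusted p = 0.00988). Of 11 autosomal germline genes, 3 rose, 2 fell and 6 missed the threshold, shares not far from those of all symbols. The piRNA pathway gene Asz1 rose from 0.188 ± 0.0431 CPM in wildtype (SD) to 1.53 ± 0.0428 CPM in deleted libraries (SD; edgeR adjusted p = 1.40e-05), and Piwil1, which encodes a piRNA-binding protein, rose by 0.83 ± 0.17 on the log2 scale (edgeR adjusted p = 0.00492). Piwil1 missed the threshold with deleted 2 left out and with its most counted bin as the gene's count (edgeR adjusted p = 0.0718 and 0.195). Tdrd1 fell by 0.39 ± 0.11 on the log2 scale (edgeR adjusted p = 0.0208), and missed the threshold with either deleted library left out (edgeR adjusted p = 0.165 and 0.0553). A list of 20 regulators of germline gene silencing held DNA methyltransferases and other repressors, and also the Tet dioxygenases, which oxidise methylated cytosine and so act toward removing methylation. Of these only Tet3 had a row under its symbol, so the list gives no value for a repressor. Tet3 fell by 0.70 ± 0.14 (edgeR adjusted p = 0.00420).

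Other genes also stood higher in the deleted libraries. Of 12 tested genes of the 2-cell embryo programme, which a small share of cultured stem cells turns on, 11 rose, with a median log2 fold change of 2.41. The share called higher over all tested symbols was 19.0%. This list was chosen with earlier results of these data known and holds several Zscan4 and Usp17l copies, so its count is a description. The summed level of the 17 listed 2-cell genes with rows was 3.06 to 3.31 CPM in wildtype and 17.3 and 17.6 CPM in deleted libraries. By the root-mean-square difference of log2 CPM over the 5 libraries, each profile taken from its wildtype mean, the symbols nearest to the Magea sum among 3235 were Nxf3 (0.122), the cadherin gene Cdh17 (0.138), Dcstamp (0.153), a gene of osteoclast fusion, Zscan4c (0.193), a 2-cell gene with close copies, and the transporter gene Slc6a12 (0.194). Zscan4c stood at 1.62 ± 0.135 CPM in wildtype (SD, n = 3) and 9.37 ± 0.0948 CPM in deleted cells (SD, n = 2), and Cdh17 at 0.180 ± 0.0116 and 1.08 ± 0.134 CPM. The likeness rests mainly on the step between the 2 groups, which is the contrast that chose the Magea genes. It holds for the sum and not for single members. The step of the sum was 2.63 on the log2 scale, against 0.96 for Magea4 and 3.20 to 4.65 for the cluster copies. From wildtype 1 to wildtype 3 the sum of the cluster copies fell from 0.225 to 0.0648 CPM, while Magea4 rose from 0.185 to 0.384 CPM.

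**Figure D5:**
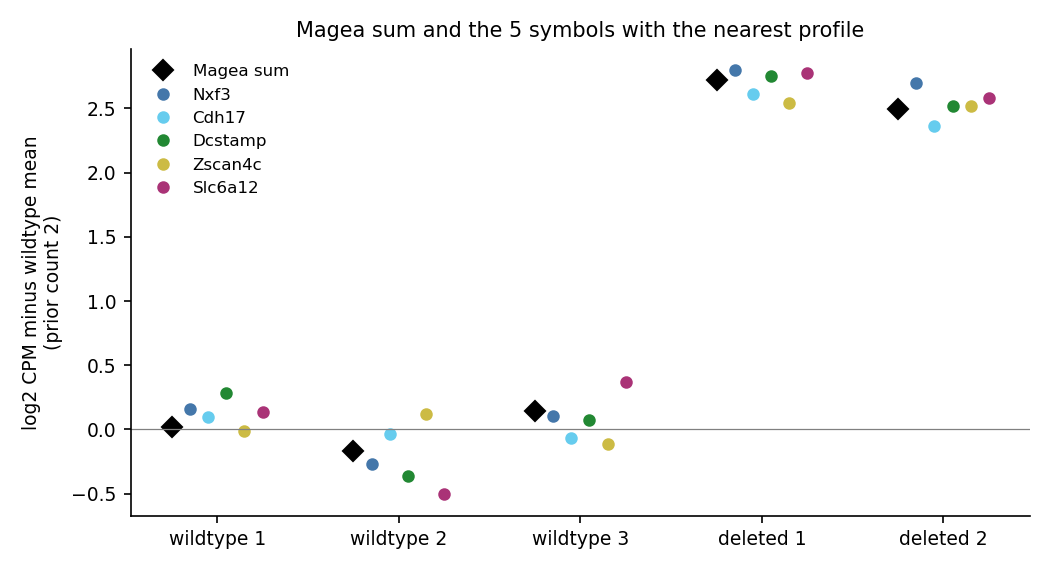
Log2 CPM of the summed Magea counts (diamonds) and of the 5 symbols with the nearest profile (circles) in each library, each shown relative to its own wildtype mean (y axis, prior count 2). In the deleted libraries the Magea sum stands at 2.72 and 2.50, and in wildtype within 0.17 of its mean.

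Some markers of other cell types shifted as well, and their part in the Magea values was not tested. Of all tested symbols, 19.0% were called higher and 13.1% lower. Of 10 fibroblast markers 9 had rows, of which Postn had 0 wildtype counts and 1 deleted count, with a summed level of 9.18 to 12.4 CPM in wildtype and 13.5 and 13.6 CPM in deleted libraries, and 5 of 7 tested were higher. Of 10 germ cell markers only Tex101 had a row, at 0.354 to 0.463 CPM in wildtype and 0.718 and 0.616 CPM in deleted libraries, a call that was lost in 4 of 5 fits without 1 library. All 8 primitive endoderm markers had counts, with sums of 7.89 to 9.07 CPM in wildtype and 5.11 and 6.44 CPM in deleted libraries. Of these, 3 were lower and 5 did not pass. Of 10 trophectoderm markers 5 had rows, with sums of 2.24 to 2.46 against 1.62 and 1.55 CPM, and 2 of 4 tested were lower. Hand1, which did not pass, and Elf5, which was not tested, stood higher in both deleted libraries than in any wildtype library. In bulk RNA a larger share of cells expressing Magea genes and more RNA per cell cannot be told apart.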

How the data were processed

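Polyadenylated RNA of 5 libraries was measured (3 wildtype, 2 deleted). The authors deposited raw read counts per exon bin as 1 table. The submitters' processing notes list STAR, with no version, and mm9. Annotation, strand setting and handling of multiply matching reads: not given in the sources used here. Bins were summed per gene, with 56 spike-in names left out. Genes were kept by edgeR's filterByExpr (minimum count 10), scaled by TMM and fitted with edgeR's robust quasi-likelihood test (R 4.3.3, edgeR 4.0.16), with Benjamini-Hochberg adjustment over all 16259 tested genes and a threshold of 0.05. The same fit was run on 151650 bins. Both were tested on simulated data. CPM use TMM-scaled library sizes, and SE is the log2 fold change over the root of F.

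The members, lists and tests were chosen with earlier results of these data known. The text names all 5 members and their bins, Mage genes with rows, up to 4 tested genes per list by p, up to 6 neighbours with rows on each side, and the 5 nearest profiles (prior count 2). DESeq2 1.42.0, limma-voom (limma 3.58.1), other scalings, filters and left-out libraries were alternatives. Sequences are from RefSeq (GRCm38.p6) and GENCODE vM21, and 95.2% of tested symbols had a chromosome in RefSeq. Many genes of the series stand under assembly IDs that the table does not pair with symbols, and these were not named.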

Additional observations from a re-analysis of the deposited data

How the results depend on the processing

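The log2 fold changes of the 5 Magea genes stayed above 0 under each alternative that could be run, from 2.44 to 5.17 for the 4 cluster copies and from 0.73 to 1.31 for Magea4. With at least 10 counts in every library, the 4 cluster copies had no value. The log2 fold change of the family sum ran from 2.51 to 2.72 over the left-out libraries, and was 4.10 with Magea4 left out, an alternative chosen after seeing the data. Genes called were 3555 (without deleted 1) to 8347 (without wildtype 3) over the left-out libraries against 6453, with 4141 without deleted 2, and 1193 where only rows with gene symbols were fitted, which tests fewer genes. Bins called were 10541 (without deleted 1) to 47473 (without wildtype 3) over the left-out libraries against 28471, with 12832 without deleted 2. Without a low-count filter, 5 listed other Mage genes were called in place of 2, since Magea3, Magea6 and Magea10 were then tested, and 3 with symbol rows alone. The replicate block gave 8200 genes, 47251 bins and a family sum of 2.73. The labels give shared numbers 1 and 2 but no shared culture, deviations of same-numbered libraries correlated at 0.13 and -0.15, and wildtype 3 has no partner in the block. The deviations of deleted 1 and deleted 2 are mirror images of each other, so these correlations are not independent. Among neighbours that did not pass, the log2 fold change of Phex reversed to 0.18 with the replicate block, 0.22 without wildtype 3 and 0.21 without deleted 1. Over the left-out libraries it ran from -1.09 without deleted 2 to 0.22. That of Cnksr2 ran from -0.28 without deleted 2 to 0.0098 without deleted 1, and that of 1700020N15Rik from -0.018 without wildtype 1 to 0.31 without wildtype 2. With the most counted bin as a gene's count, Cnksr2 (-0.80, edgeR adjusted p = 0.0352) and Mamld1 (-2.07, edgeR adjusted p = 0.0160) passed. The cause was not tested in these cases. Wildtype counts of 0 to 8 per library limit the cluster copies, and counts are not independent molecules, so intervals cover counting error only.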
